A study of Homo sapiens with 6 samples.

Results

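The genes of transforming growth factor beta (TGF-beta) and bone morphogenetic protein (BMP) signalling were followed across 6 human prostate cancer cell lines. They are 39 genes chosen by name as ligands, receptors, signal carriers, inhibitors and targets of the pathway. All 39 were found among the 42887 gene symbols kept from the deposited tables, each as 1 entry. The 3 castration-sensitive lines LnCaP, VCaP and LAPC4 were set beside the castration-resistant LAPC4-CR, LnCaP-abl and VCaP-CR. Each resistant line shares its name with 1 sensitive line, and the 2 lines that share a name are called a pair, or a lineage where both lines are meant. LnCaP and LAPC4 were kept in RPMI and VCaP in DMEM, all with 10% fetal bovine serum. The 3 resistant lines were kept in RPMI with 10% charcoal-stripped serum, which is depleted of steroids, and B27 at 1X. No line received any further treatment, and no allele is given for any line. State and medium differed together in every pair, so their parts in a difference cannot be told apart. Each line was represented by 1 library, and how the resistant lines were derived is not given in the sources used here.

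Total counts ran from 8661337 in LnCaP to 22433655 in LAPC4-CR, and the resistant library was the deeper of each pair. Of 10 markers of prostate luminal epithelium, 8 to 10 were at 1 scaled FPKM or more in each library. The summed level of 8 stromal markers was 2.50 to 6.01 scaled FPKM in 5 libraries and 52.1 in VCaP-CR, where LUM (lumican, a matrix proteoglycan) alone gave 50.2 and the other 7 were each below 1. The fibroblast collagens COL1A1, COL1A2 and COL3A1 were between 0.128 and 0.712 in all libraries. Luminal markers were lower in each resistant line, with a summed level of 1130 in LnCaP against 327 in LnCaP-abl, 2160 against 1530 in the VCaP lines and 547 against 335 in the LAPC4 lines, and so was the share of counts in small RNA classes (22.1% against 14.9%, 26.98% against 21.5%, 23.4% against 13.0%). The part of depth, of LUM and of these shifts in the differences given here was not tested. In libraries of whole cultures, fewer cells of a type and less RNA per cell cannot be told apart.

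Ligands of this family bind a pair of type II and type I receptor kinases on the cell surface. In the TGF-beta and activin arm the active type I receptor phosphorylates SMAD2 and SMAD3, and in the BMP arm it phosphorylates SMAD1, SMAD5 and SMAD9. SMAD4 joins both sets. Inhibitory SMADs, ubiquitin ligases, the pseudoreceptor BAMBI and the membrane protein PMEPA1 restrain the signal, and the ID genes, which encode helix-loop-helix proteins that hold back differentiation factors, are classical BMP targets. In normal prostate epithelium TGF-beta is known to restrain growth.

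Levels are given as scaled FPKM, which is the count corrected for gene length and library total (FPKM), divided by a factor per library, and can be compared between genes because they are per length. A change is the difference in log2(scaled FPKM + 1), with the sensitive line subtracted from the resistant one, which makes the changes of low genes look smaller, and a gene counts as 2-fold higher or lower where this difference is at least 1 in size. A fold is the plain ratio of scaled FPKM, with an exact 95% interval that covers counting error only. Of the 39 members, 33 had a mean of at least 1 scaled FPKM and were tested. TGFB1, TGFB2, BMP4, BMP6, INHBA and FST did not reach it. Whether the authors counted by strand is not given, so reads of an overlapping or antisense gene cannot be separated.

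**Figure D1:**
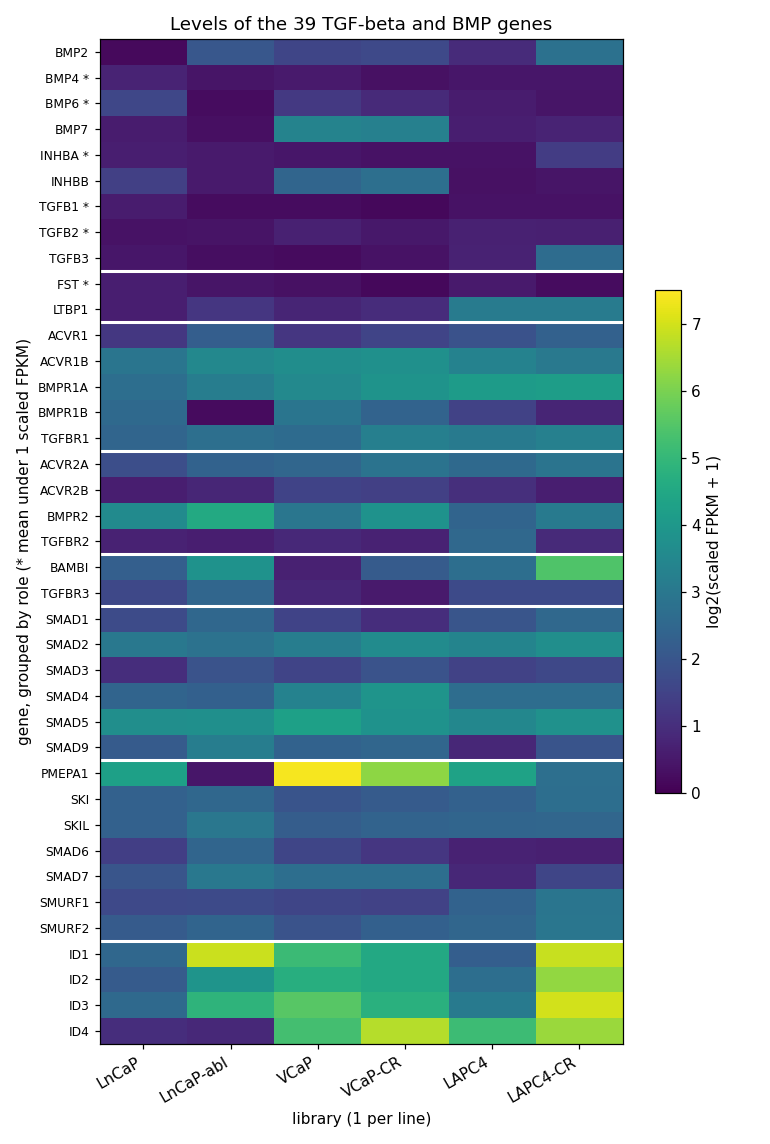
Level of each of the 39 genes (rows, grouped by role and separated by white lines) in each of the 6 libraries (columns), as log2(scaled FPKM + 1) by colour; an asterisk marks the 6 genes with a mean under 1 scaled FPKM. The 8 brightest cells, at 74.3 scaled FPKM or more, are PMEPA1 in VCaP and VCaP-CR, all 4 ID genes in LAPC4-CR, ID1 in LnCaP-abl and ID4 in VCaP-CR, and the ligand rows are dark in most libraries.

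The ID genes were among the members furthest apart between states. ID1, ID2 and ID3 were many times higher in LnCaP-abl and LAPC4-CR than in LnCaP and LAPC4, while in the VCaP pair they were already high in the sensitive line and somewhat lower in the resistant one. ID4 was instead higher in VCaP-CR and LAPC4-CR and near 1 scaled FPKM in both LnCaP lines.

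The upstream sequences of 5 members with large changes are shown because they are the stretch in which regulatory elements of these members would first be looked for. They are the 250 bases before the gene start in RefSeq's table on GRCh38.p14, read 5′ to 3′ on the gene's strand: ID1 (chr20:31605039-31605288, + strand), ID2 (chr2:8681806-8682055, + strand), ID3 (chr1:23559502-23559751, - strand), BAMBI (chr10:28677271-28677520, + strand) and PMEPA1 (chr20:57711473-57711722, - strand, before the farthest upstream of its 4 starts). Capitals mark matches on either strand to the palindromic SMAD box GTCTAGAC, the GC-rich SMAD element GGCGCC or the androgen receptor half-site AGAACA.
ID1: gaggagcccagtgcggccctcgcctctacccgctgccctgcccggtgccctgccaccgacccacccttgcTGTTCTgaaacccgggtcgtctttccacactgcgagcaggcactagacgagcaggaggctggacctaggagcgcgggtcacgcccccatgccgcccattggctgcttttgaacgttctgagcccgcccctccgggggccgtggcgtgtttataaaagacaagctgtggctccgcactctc
ID2: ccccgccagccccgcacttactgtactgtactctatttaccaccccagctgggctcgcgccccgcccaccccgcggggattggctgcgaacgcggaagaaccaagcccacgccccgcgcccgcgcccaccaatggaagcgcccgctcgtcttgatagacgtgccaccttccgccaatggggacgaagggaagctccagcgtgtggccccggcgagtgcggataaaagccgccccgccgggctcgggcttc
ID3: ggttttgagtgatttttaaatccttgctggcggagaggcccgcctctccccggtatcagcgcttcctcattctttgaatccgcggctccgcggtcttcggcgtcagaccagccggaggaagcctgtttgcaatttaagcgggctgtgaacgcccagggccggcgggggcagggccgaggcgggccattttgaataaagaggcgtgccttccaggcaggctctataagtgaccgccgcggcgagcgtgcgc
BAMBI: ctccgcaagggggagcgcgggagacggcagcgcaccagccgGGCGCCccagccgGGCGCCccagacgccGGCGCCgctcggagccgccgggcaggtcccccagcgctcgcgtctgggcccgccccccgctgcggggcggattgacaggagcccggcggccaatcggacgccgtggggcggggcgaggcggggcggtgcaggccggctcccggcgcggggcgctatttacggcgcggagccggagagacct
PMEPA1: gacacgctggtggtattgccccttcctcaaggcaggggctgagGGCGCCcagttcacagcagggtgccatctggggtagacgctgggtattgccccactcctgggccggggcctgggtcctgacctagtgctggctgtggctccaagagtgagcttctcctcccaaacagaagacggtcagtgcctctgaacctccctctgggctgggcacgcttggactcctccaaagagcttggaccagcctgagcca

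BAMBI held GGCGCC 3 times, starting at -209, -196 and -181 from the gene start, and PMEPA1 held it once, at -207. ID1 held the half-site once, at -180, as the reverse complement. ID2 and ID3 held none of the 3 motifs in these windows, and neither did ID4. The second of the 4 PMEPA1 windows also held the half-site, at -229. Of 35116 windows of all genes, 16.4% held GGCGCC, 12.4% held AGAACA and 0.182% held GTCTAGAC. Among the 68 windows of the 36 members that matched the table, 15 held GGCGCC, 8 held AGAACA and 1, of SMAD6, held GTCTAGAC. BMP2, BMP7 and SKI were not matched. A match is a description of letters and shows no binding, and no 2 of the matches marked overlapped.

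ID1 (chromosome 20, 29656747 to 29657979, hg18) stood at 4.64 scaled FPKM in LnCaP against 118 in LnCaP-abl, at 33.5 in VCaP against 22.2 in VCaP-CR, and at 3.71 in LAPC4 against 116 in LAPC4-CR. LnCaP-abl was 25.5-fold above LnCaP (95% interval 19.4 to 34.2), and LAPC4-CR 31.2-fold above LAPC4 (24.1 to 41.1). VCaP was 1.51-fold above VCaP-CR (1.31 to 1.73). The sensitive and resistant groups overlapped, because VCaP exceeded VCaP-CR and every other sensitive line was below both.

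ID3 (chromosome 1, 23756996 to 23758872) had the same order of states. It was 4.93 in LnCaP against 28.4 in LnCaP-abl, 46.3 in VCaP against 26.4 in VCaP-CR, and 7.54 in LAPC4 against 126 in LAPC4-CR. The change was 2.31 for the LnCaP pair, -0.79 for the VCaP pair and 3.89 for the LAPC4 pair. ID2 (chromosome 2, 8736426 to 8742034) was 3.43 and 13.8, 25.2 and 22.1, and 5.55 and 76.5 scaled FPKM in the same order of libraries. Its changes were 1.74, -0.18 and 3.56, so the 2 VCaP lines lay closest together.

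ID4 (chromosome 6, 19945596 to 19948894) did not go with the other ID genes. It was 0.967 scaled FPKM in LnCaP against 0.830 in LnCaP-abl, on 21 and 23 counts. In VCaP and VCaP-CR it was 37.6 and 101, and in LAPC4 and LAPC4-CR 34.2 and 82.6. VCaP-CR was 2.70-fold above VCaP (2.51 to 2.91) and LAPC4-CR 2.42-fold above LAPC4 (2.26 to 2.59), while the 2 LnCaP lines did not differ beyond counting error.

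**Figure D2:**
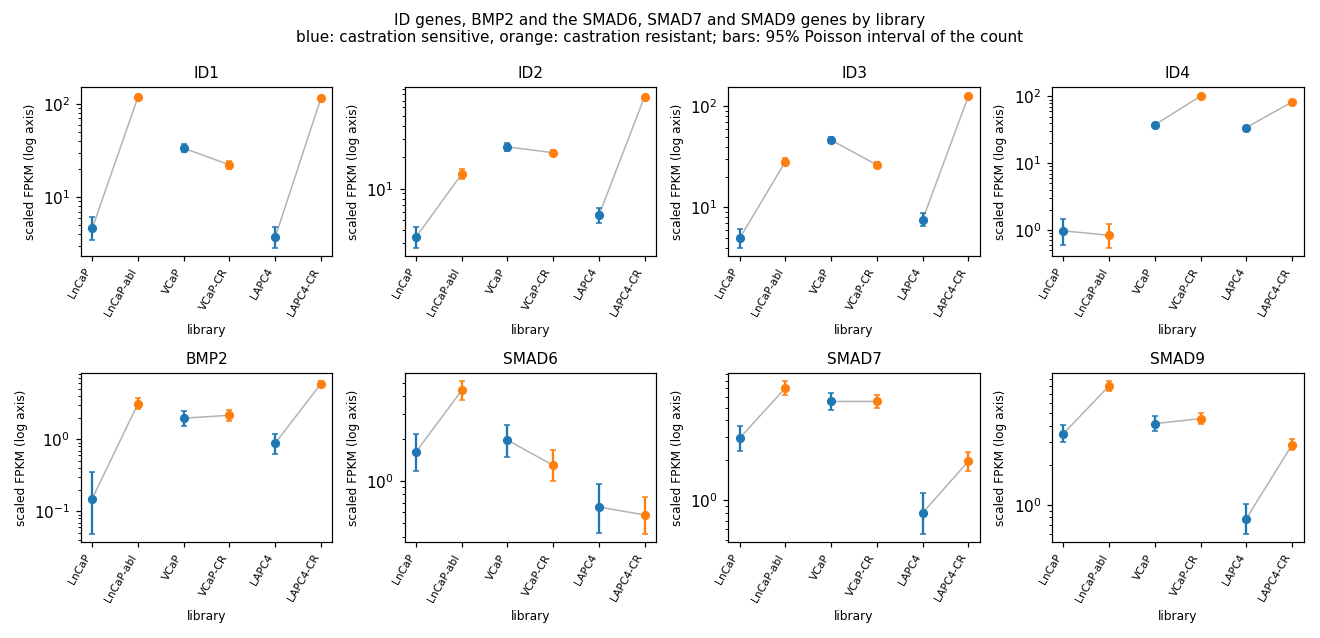
Scaled FPKM (log axis) of ID1, ID2, ID3, ID4, BMP2, SMAD6, SMAD7 and SMAD9 in the 6 libraries; blue points are castration-sensitive and orange points castration-resistant lines, grey lines join a pair, and bars are 95% Poisson intervals of the count. ID1, ID2, ID3 and BMP2 climb steeply in the LnCaP and LAPC4 pairs and stay within a narrow range in the VCaP pair, and ID4 stays near 1 in the LnCaP pair.

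Of the 9 ligands, 4 passed the filter. BMP2, a BMP that signals through the receptors BMPR1A and BMPR1B, was 0.151 scaled FPKM in LnCaP against 3.14 in LnCaP-abl, 1.97 in VCaP against 2.16 in VCaP-CR, and 0.886 in LAPC4 against 5.91 in LAPC4-CR. LnCaP was thus the lowest line, at 5 counts (95% Poisson interval 1.6 to 11.7), against 133 in LnCaP-abl. The fold was 20.8 (8.70 to 65.2) for the LnCaP pair, 1.10 (0.810 to 1.49) for the VCaP pair and 6.67 (4.85 to 9.41) for the LAPC4 pair. BMP2, like ID1, ID2 and ID3, was therefore higher in LnCaP-abl and LAPC4-CR and closest between the VCaP lines.

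TGFB3, a TGF-beta ligand, was high in LAPC4-CR alone. It was 0.646 scaled FPKM in LAPC4 against 5.23 in LAPC4-CR (8.09-fold, 5.90 to 11.4), and between 0.167 and 0.374 in the LnCaP and VCaP lines. BMP7, another BMP, was high in the VCaP lineage alone, where VCaP stood at 9.30 and VCaP-CR at 8.66, with at most 0.683 in the other 4 libraries. INHBB, the beta-B subunit of activin and inhibin, was 4.44 in VCaP against 5.70 in VCaP-CR, 1.69 in LnCaP against 0.449 in LnCaP-abl, and 0.266 in LAPC4 against 0.351 in LAPC4-CR. LnCaP was 3.76-fold above LnCaP-abl for INHBB (2.13 to 6.95). The VCaP lines thus held the highest level of both BMP7 and INHBB.

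The 5 ligands below the filter were low almost throughout. TGFB1, the prototype ligand, lay between 0.113 and 0.491 scaled FPKM on 4 to 16 counts, TGFB2 between 0.294 and 0.616, and BMP4 between 0.274 and 0.685. BMP6 was 2.02 in LnCaP against 0.191 in LnCaP-abl, on 58 and 7 counts, and 0.350 to 1.39 elsewhere. INHBA, the beta-A subunit of activin, had 281 counts in LAPC4-CR and 27 in LAPC4 (change 0.97), and lay between 0.278 and 0.559 scaled FPKM outside LAPC4-CR. Among the extracellular regulators, FST (follistatin, which traps activin) lay between 0.126 and 0.546. LTBP1, which tethers latent TGF-beta to the matrix, was 7.69 in LAPC4 against 7.72 in LAPC4-CR and 0.560 to 1.27 in the other 4 libraries, so the 2 LAPC4 lines stood apart from the rest, with a fold of 1.00 (0.917 to 1.10) between them.

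All 5 type I receptors passed the filter. BMPR1A, a BMP receptor, was the highest of them by mean level, at 5.50 and 8.05 scaled FPKM in LnCaP and LnCaP-abl, 10.7 and 13.4 in VCaP and VCaP-CR, and 16.3 and 17.0 in LAPC4 and LAPC4-CR. BMPR1B, its close relative, was lower in each resistant line: 4.96 in LnCaP against 0.174 in LnCaP-abl, 6.48 in VCaP against 4.20 in VCaP-CR, and 1.78 in LAPC4 against 0.726 in LAPC4-CR. LnCaP-abl stood far below the rest, on 13 counts against 290 in LnCaP, 28.5-fold below LnCaP (16.4 to 54.1). TGFBR1, the TGF-beta type I receptor, lay between 4.44 and 8.61 in all libraries with changes of 0.21 to 0.62. ACVR1, a receptor for BMPs, had changes of 1.05, 0.37 and 0.46 and ACVR1B, an activin receptor, of 0.61, 0.09 and -0.29 across the LnCaP, VCaP and LAPC4 pairs.

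Among the 4 type II receptors, BMPR2, which serves BMPs, was the highest by mean level and higher in each resistant line. It was 11.0 scaled FPKM in LnCaP against 22.6 in LnCaP-abl, 6.70 in VCaP against 13.1 in VCaP-CR, and 4.32 in LAPC4 against 7.43 in LAPC4-CR. Its folds were 2.05 (1.92 to 2.19), 1.96 (1.81 to 2.13) and 1.72 (1.58 to 1.88), but LnCaP exceeded LAPC4-CR, so the groups overlapped. TGFBR2, the receptor that binds TGF-beta first, was 4.78 in LAPC4 against 0.844 in LAPC4-CR, a level 5.67-fold lower in the resistant line (4.52 to 7.15). In the LnCaP and VCaP lines it lay between 0.546 and 0.825, so LAPC4 was the only line above 1. The activin receptors ACVR2A and ACVR2B lay between 2.46 and 6.33 and between 0.535 and 1.87.

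BAMBI, a membrane pseudoreceptor without a kinase that blocks receptor assembly (chromosome 10, 29006277 to 29011874), was higher in each resistant line. It stood at 3.78 scaled FPKM in LnCaP against 13.2 in LnCaP-abl, 0.619 in VCaP against 3.45 in VCaP-CR, and 5.49 in LAPC4 against 42.5 in LAPC4-CR. The folds were 3.50 (2.74 to 4.51), 5.58 (3.20 to 10.5) and 7.75 (6.61 to 9.13), the VCaP value resting on 14 counts. The groups still overlapped, as VCaP-CR lay below LnCaP and LAPC4. The mean change was 1.93 ± 0.71 (SD, n = 3 pairs), and an exact permutation of the signs of the pairs, two-sided, gave p = 0.25, the smallest that 3 pairs allow. TGFBR3 (betaglycan), a co-receptor that presents TGF-beta, was 2.10 in LnCaP against 4.53 in LnCaP-abl, 0.732 in VCaP against 0.454 in VCaP-CR, and 2.20 in LAPC4 against 2.22 in LAPC4-CR.

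PMEPA1, a membrane protein that keeps SMAD2 and SMAD3 from the receptor and is itself known as both androgen- and TGF-beta-induced (chromosome 20, 55656854 to 55719998), was lower in each resistant line. It was 18.2 scaled FPKM in LnCaP against 0.361 in LnCaP-abl, on 945 and 24 counts, 169 in VCaP against 74.3 in VCaP-CR, and 18.8 in LAPC4 against 5.70 in LAPC4-CR. The resistant level was 50.3-fold lower (33.6 to 78.9) in the LnCaP pair, 2.28-fold lower (2.21 to 2.35) in the VCaP pair and 3.30-fold lower (3.02 to 3.60) in the LAPC4 pair. VCaP-CR nevertheless exceeded LnCaP and LAPC4. The mean change was -2.19 ± 1.42 (SD, n = 3 pairs), with the same exact permutation p of 0.25.

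**Figure D3:**
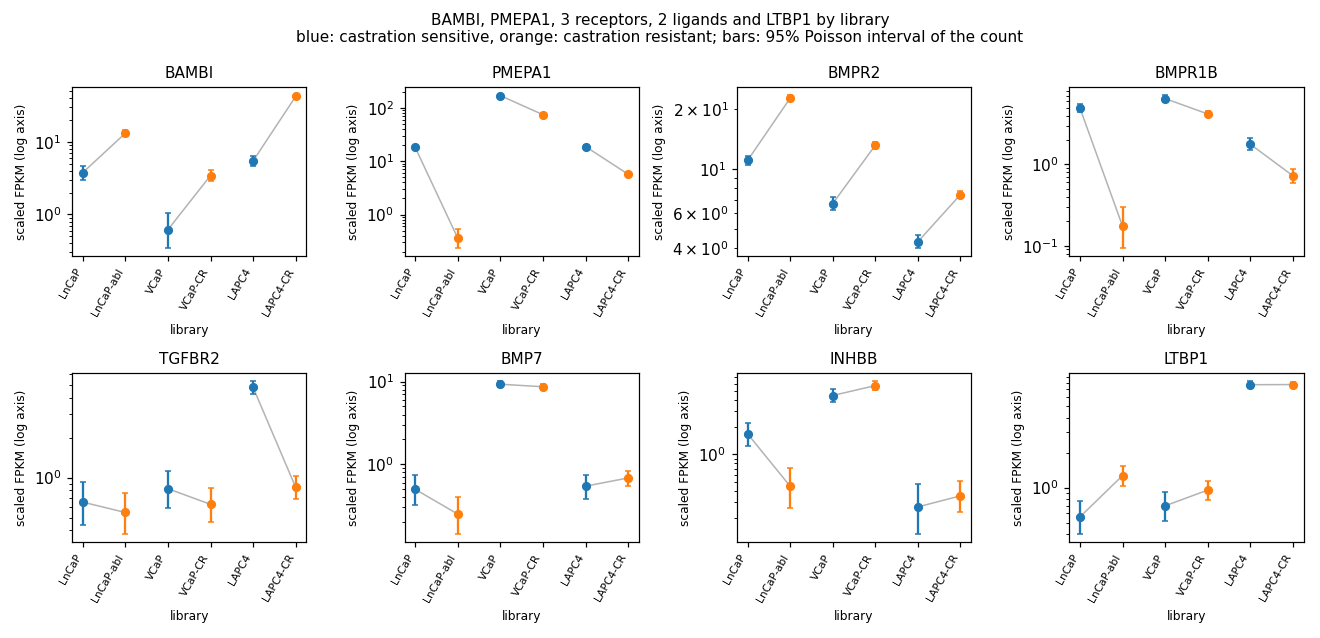
Scaled FPKM (log axis) of BAMBI, PMEPA1, BMPR2, BMPR1B, TGFBR2, BMP7, INHBB and LTBP1 in the 6 libraries; colours, lines and bars are as for the ID genes (blue castration sensitive, orange castration resistant, bars 95% Poisson intervals). BAMBI and BMPR2 are higher and PMEPA1 and BMPR1B lower in the resistant line of every pair, and BMP7 and LTBP1 separate the lineages, at 8.66 or more in the VCaP lines and 7.69 or more in the LAPC4 lines.

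Among the signal-carrying SMADs, SMAD9 of the BMP arm was 3.47 scaled FPKM in LnCaP against 8.04 in LnCaP-abl, 4.14 in VCaP against 4.52 in VCaP-CR, and 0.785 in LAPC4 against 2.86 in LAPC4-CR, with folds of 2.32 (1.96 to 2.75), 1.09 (0.927 to 1.29) and 3.64 (2.76 to 4.88). SMAD5, the SMAD with the highest mean level, which the deposited tables class as a polymorphic pseudogene, was 12.1 and 12.4, 18.3 and 13.3, and 10.0 and 12.8 across the LnCaP, VCaP and LAPC4 pairs, sensitive line first. SMAD1, the third BMP-arm SMAD, had changes of 0.80, -0.54 and 0.57, and SMAD3 of the TGF-beta arm of 0.93, 0.40 and 0.14. As plain ratios in the LnCaP pair, SMAD3 was 2.82-fold (2.12 to 3.81) and SMAD1 2.06-fold (1.68 to 2.54) higher in LnCaP-abl, and SMAD1 was 0.522-fold (0.393 to 0.693) in the VCaP pair. SMAD2 and the shared SMAD4 had changes between -0.16 and 0.55. On the scale with the pseudocount, SMAD9 was the 1 signal-carrying SMAD of 6 with a change of at least 1 in a pair.

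Of the inhibitors other than PMEPA1, 2 of 6, SMAD6 and SMAD7, had a change of at least 1 in a pair, both in the LnCaP pair. SMAD6, which mainly restrains the BMP arm, was 1.61 scaled FPKM in LnCaP against 4.40 in LnCaP-abl, 1.95 in VCaP against 1.29 in VCaP-CR, and 0.651 in LAPC4 against 0.572 in LAPC4-CR. SMAD7, which restrains both arms, was 2.94 and 7.05, 5.57 and 5.57, and 0.801 and 1.97 in the same order. The ubiquitin ligases SMURF1 and SMURF2 and the SMAD co-repressors SKI and SKIL had changes between -0.08 and 0.66 in all pairs.

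**Figure D4:**
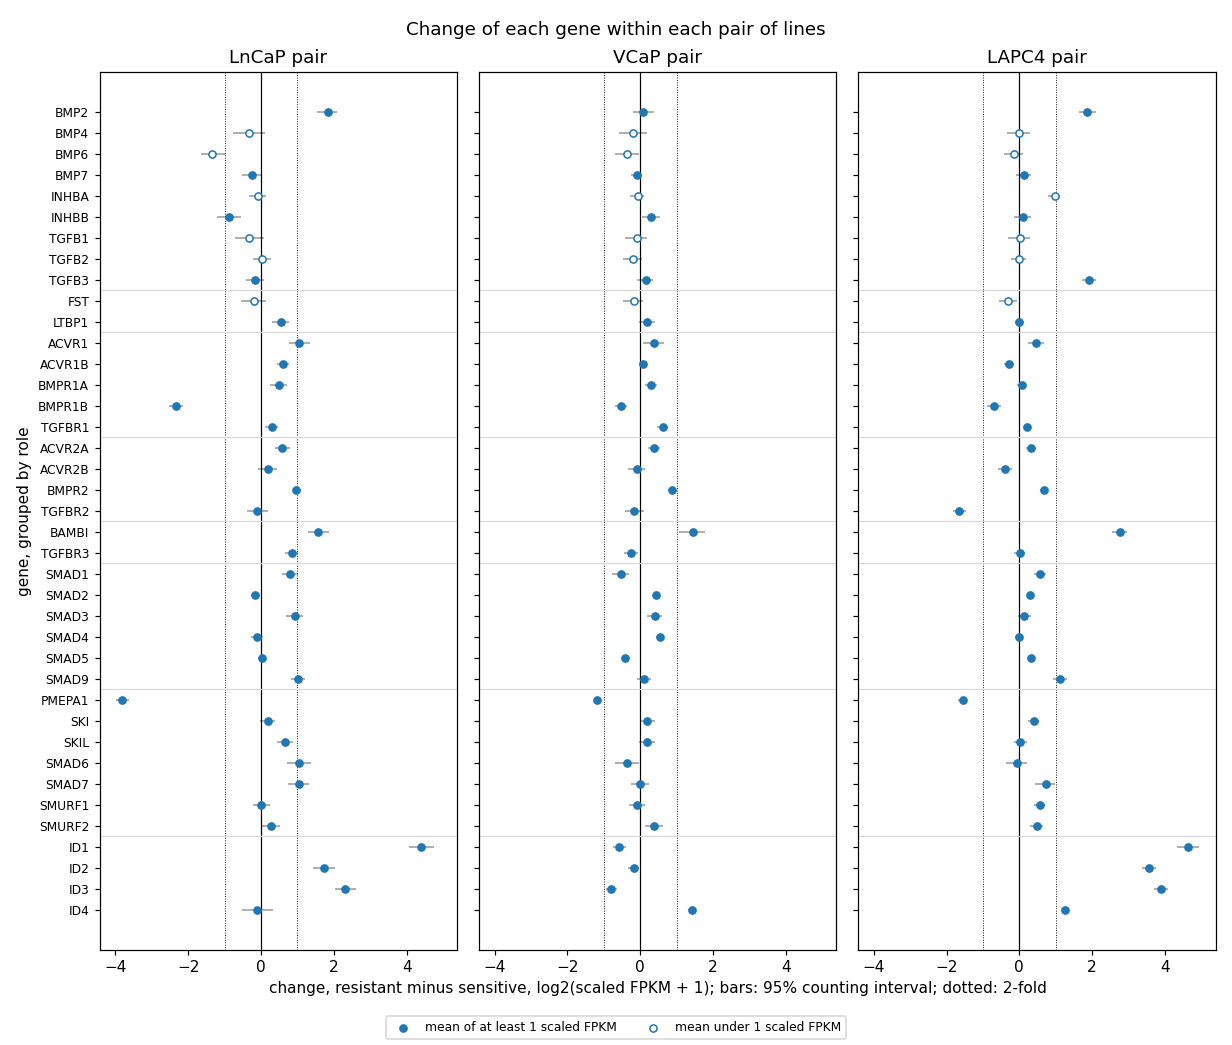
Change of each of the 39 genes (rows, grouped by role) in the LnCaP, VCaP and LAPC4 pairs, as resistant minus sensitive log2(scaled FPKM + 1); filled points are the 33 genes that passed the filter, open points the other 6, bars 95% counting intervals, and dotted lines a change of 1 in either direction. In the VCaP pair, BAMBI, ID4 and PMEPA1 are the points beyond the dotted lines, while the LnCaP and LAPC4 panels show ID1 furthest right.

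Counted within pairs, where 1 library per state allows no test, 9 of 33 members were at least 2-fold higher in LnCaP-abl, 2 in VCaP-CR and 8 in LAPC4-CR. Of all 16231 tested genes, 6.23%, 2.37% and 5.22% were. At least 2-fold lower were 2, 1 and 2 members, against 6.19%, 2.03% and 5.28% of all genes. The LnCaP higher set was BMP2, ACVR1, BAMBI, SMAD6, SMAD7, SMAD9, ID1, ID2 and ID3, and the LAPC4 higher set BMP2, TGFB3, BAMBI, SMAD9 and the 4 ID genes. TGFB3 passed the filter only through LAPC4-CR, where it was high. TGFBR2, counted as lower in LAPC4-CR, passed it only through LAPC4. The members higher in both were BAMBI, BMP2, SMAD9, ID1, ID2 and ID3, 6 of 33 against 0.678% of all genes, a combination of pairs chosen after the values were seen. With a pseudocount of 5 in place of 1, 4, 1 and 5 members were 2-fold higher, and BAMBI no longer was in the VCaP pair (0.59). A larger pseudocount makes the changes of all low genes smaller. The share of all genes at this setting is not given here, so these counts cannot be set against it. The median change of the members was 0.54, 0.10 and 0.32 across the LnCaP, VCaP and LAPC4 pairs. It was -0.01, -0.01 and -0.02 over all tested genes and 0.08, -0.01 and 0.02 over the 11341 protein-coding ones.

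At least 2-fold in the same direction in all 3 pairs were BAMBI, higher, and PMEPA1, lower. Among all genes, 0.0616% were so higher and 0.0986% lower, and both members were known from earlier results of these data. Whatever the size of the change, 13 of 33 members were higher in all 3 pairs, against 15.1% of all and 18.1% of protein-coding genes. They were LTBP1, BMP2, the receptors TGFBR1, BMPR1A, ACVR1, ACVR2A and BMPR2, BAMBI, SMAD3, SMAD9, SMURF2, SKI and SKIL, with small changes among them in the LAPC4 pair, where LTBP1 had 0.00, SKIL 0.03 and BMPR1A 0.06. In the VCaP pair the counting intervals of the change included 0 for BMP2, SMAD9, LTBP1, SKI and SKIL. They also included 0 for SKI in the LnCaP pair, and for LTBP1, BMPR1A, SMAD3 and SKIL in the LAPC4 pair. Lower in all 3 were PMEPA1, BMPR1B and TGFBR2, 3 of 33 against 16.7% of all genes. TGFBR2 was lower beyond counting error in the LAPC4 pair only. Its change was -0.10 (-0.38 to 0.18) in the LnCaP pair and -0.16 (-0.43 to 0.10) in the VCaP pair.

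Which members changed in common with castration resistance was asked with edgeR's quasi-likelihood test over the 3 pairs. It called 0 of 33 members and 0 of 16231 genes at an adjusted p under 5%, a background of 0.0%. At an unadjusted p under 0.05, 8 of 33 members were higher and 2 lower, and 728 and 548 of all 16231 genes. BAMBI came first among the members, with a log2 change of 2.42 (SE 0.34, edgeR adjusted p = 0.456). It was higher in each of the pairs. PMEPA1 had -2.57 (SE 0.87, edgeR adjusted p = 0.593), BMPR2 0.94 (SE 0.23, 0.593), BMP2 2.27 (SE 0.78, 0.593) and SMAD9 1.07 (SE 0.39, 0.598). ID1 had the largest log2 change of the members, 3.36, with an SE of 1.30 and an edgeR adjusted p of 0.616.

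Other tools and filters gave other calls. DESeq2 called BAMBI (log2 change 2.43, adjusted p = 1.89e-06) and PMEPA1 (-2.61, adjusted p = 0.0214), and edgeR without a filter called both and ID1, while limma called 0 members. Without the VCaP pair, edgeR called ID1 (log2 change 4.84, adjusted p = 0.00318) and ID3 (3.33, adjusted p = 0.0374). Over all alternatives the adjusted p ran from 1.89e-06 to 1.0 for BAMBI, 0.0214 to 1.0 for PMEPA1, 0.00318 to 1.0 for ID1 and 0.0374 to 1.0 for ID3.

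Whether members differed between the 3 lineages was asked in the same model, with the 2 libraries of a lineage in the place of replicates and state as a covariate. EdgeR called 7 of 33 members, against 12.7% of all tested genes. The VCaP lineage was the high one for BMP7 (mean of the 2 libraries 8.98 scaled FPKM, against 0.374 in the LnCaP and 0.613 in the LAPC4 lineage, edgeR adjusted p = 0.00404), INHBB (5.07, against 1.07 and 0.309, 0.0256) and PMEPA1 (122, against 9.26 and 12.3, 0.0435). It was the low one for BAMBI (2.03, against 8.50 and 24.0, edgeR adjusted p = 0.0133). LTBP1 was high in the LAPC4 lineage (7.71, against 0.914 and 0.825, edgeR adjusted p = 0.00684). BMP7, INHBB and LTBP1 passed the filter only through the lineage in which they were high. Their calls are therefore tied to the filter. ID4 was low in the LnCaP lineage (0.899, against 69.5 in VCaP and 58.4 in LAPC4, edgeR adjusted p = 0.00441), and BMPR2 high there (16.8, against 9.92 and 5.88, 0.0444). ID1, with an edgeR adjusted p of 0.779, did not pass, its means being 61.5, 27.9 and 59.7 in the LnCaP, VCaP and LAPC4 lineages with 1 low and 1 high library in the first and last.

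Leaving out the lineage that stood apart ended the call for BMP7 (edgeR adjusted p = 0.607 without the VCaP pair), INHBB (0.322), PMEPA1 (0.292) and BAMBI (0.262), for LTBP1 (0.962 without the LAPC4 pair) and for ID4 (0.641 without the LnCaP pair). Such a fit compares only the lineages that lay closer together. Its outcome was largely set beforehand and cannot tell how firm these calls are. BMPR2 was lost without any 1 of the pairs (0.0763 to 0.167) and PMEPA1, BMPR2 and BAMBI without the state term (0.142, 0.174 and 0.149). PMEPA1 and BMPR2 were also lost among protein-coding genes alone (edgeR adjusted p = 0.0663 and 0.0517), PMEPA1 with a filter at 5 scaled FPKM (0.0504) and BMPR2 with filterByExpr (0.0517). The smallest adjusted p over all alternatives was 5.65e-21 for BMP7, 2.17e-06 for INHBB, 2.39e-06 for PMEPA1, 2.43e-08 for BAMBI, 3.09e-13 for LTBP1, 9.11e-20 for ID4 and 0.00229 for BMPR2, each from DESeq2 or from edgeR without a filter.

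Of 61 other genes of the pathway taken from a textbook list, 32 passed the filter. EdgeR called 0 of them between states, with 2 higher and 3 lower at an unadjusted p under 0.05. Of all 16231 tested genes, 728 were so higher and 548 lower. Between lineages edgeR called 8 of the 32, against 12.7% of all tested genes. Among those called, NODAL, BMP8B and GREM1 passed the filter only through the VCaP lineage, where they were highest, so their calls are tied to the filter. At least 2-fold higher were 3 in LnCaP-abl, 0 in VCaP-CR and 2 in LAPC4-CR, and at least 2-fold lower 2, 5 and 5. Of all tested genes, 6.23%, 2.37% and 5.22% were so higher and 6.19%, 2.03% and 5.28% lower. The median changes of the 32 genes were 0.08, -0.08 and -0.11, against 0.54, 0.10 and 0.32 for the members. GDF15, a distant relative of the TGF-beta ligands that was known beforehand to be lower, had the lowest change in every pair, at -4.30, -3.92 and -6.29. The highest changes in the 3 pairs belonged to FKBP1A, which binds type I receptors and holds them inactive (19.0 scaled FPKM in LnCaP against 82.4 in LnCaP-abl, change 2.06), TRIM33, which binds SMAD2, SMAD3 and SMAD4 (7.20 in VCaP against 11.1 in VCaP-CR, 0.56), and THBS1, thrombospondin, which activates latent TGF-beta (5.80 in LAPC4 against 17.9 in LAPC4-CR, 1.47).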

How the data were processed

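RNA was measured in 6 cell lines with 1 library each, made from total RNA with a SOLiD kit per the labels' protocols. The deposited tables hold whole-number counts per gene and FPKM, both made by the authors. The submitters' processing notes name HTSeq and hg18, without versions, and the sources used here name no aligner or strand setting. Deposited FPKM equalled count over length and total within 1% for 100% of genes over 10 counts. Gene length came from 5 of the 6 tables. Gene starts were raised by 1 to count from 1.

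Small RNA classes (8763 entries) were left out, entries that share a symbol were summed, and FPKM was divided by the median ratio over 11600 genes at 1 or more in all libraries (factors 0.847 to 1.11). The filter was a mean scaled FPKM of 1, which 16231 genes passed. Counts entered edgeR 4.0.16 in R 4.3.3 (quasi-likelihood, TMM, lineage and state as terms, Benjamini-Hochberg, 5%). DESeq2 1.42.0, limma 3.58.1 and the other alternatives are given with the results' dependence on processing. Both tests were also run on simulated counts, with the same spread for every gene and state effects alike in every pair. These data differ from that setting, so the run gives no support for the results here.

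The pairing comes from the line names. Deviations from the group means correlated within pairs at 0.46 (LnCaP), 0.73 (VCaP) and 0.59 (LAPC4). As the lines had 1 library each, p-values of the fit with lineage and state rest on how the pairs differ in their change. They do not measure the spread between cultures. Genes with values in every library were those changed the same way in all pairs and 2-fold in 2, the 3 highest and 3 lowest changes per pair, the 5 smallest p of each test and the highest level per role; a few others were added after their values were seen. The members, lists and tests were chosen with earlier results of these data known.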

Additional observations from a re-analysis of the deposited data

Results flagged for a closer look

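Some members went in opposite directions in different pairs, with counting intervals of the change that did not include 0 in either pair and a change of at least 1 in one of them. The difference between pairs was not tested, because each pair has 1 library per state. ID1 differed by 4.97 between the LnCaP pair (4.40) and the VCaP pair (-0.57), and by -5.20 between the VCaP and the LAPC4 pair (4.63). ID3 differed by 3.10 between the LnCaP (2.31) and VCaP (-0.79) pairs and by -4.68 between the VCaP and LAPC4 (3.89) pairs. ID2 differed by 1.92 between the LnCaP (1.74) and VCaP (-0.18) pairs and by -3.74 between the VCaP and LAPC4 (3.56) pairs. SMAD6 differed by 1.42 between the LnCaP (1.05) and VCaP (-0.37) pairs. VCaP was also the only sensitive line kept in DMEM, and the part of that medium in these differences was not tested.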

How the results depend on the processing

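Calls between states moved from 0 members and 0 genes with the filter and the tool. Without a filter edgeR called 2 of 39 members higher and 1 lower, and 95 and 58 of 41666 genes. DESeq2 called 1 and 1 of 33 members, and 83 and 55 of 16231 genes. Leaving out 1 pair gave 0 to 2 members higher, 0 to 13 genes higher and 1 to 20 lower. Without the replicate block edgeR called 0 members and 0 genes, so the pairing changed no call at 5%. Members called between lineages, 7 of 33, were 17 of 39 without a filter and 3 of 13 with a filter at 5 scaled FPKM. They were 16 of 33 in DESeq2 and 2 to 12 of 33 without 1 pair. For all genes, 2065 of 16231 became 4900 of 41666 without a filter and 1144 of 8143 with the filter at 5. They became 3973 of 16231 in DESeq2, 673 to 3573 of 16231 without 1 pair, and 1294 of 11341 among protein-coding genes alone. With the filter, the number tested changed along with the number called. With a pseudocount of 5, the members at least 2-fold higher were 4, 1 and 5 across the LnCaP, VCaP and LAPC4 pairs, those lower were 1 in the LnCaP and 1 for the LAPC4 pair, 0 were higher in all pairs, and the LnCaP median was 0.30. The filter at 5 scaled FPKM left 13 members, with 4 and 5 higher and 1 and 1 lower in the LnCaP and LAPC4 pairs. The shares of all genes at this pseudocount and at this filter are not given here, so these member counts cannot be set against them. Without a filter the LnCaP median was 0.27. With 1 pair left out, 1 to 6 members were at least 2-fold higher in the others. The sign of the log2 change between states turned for 10 of 33 members. These were INHBB (0.05 without the block, -0.79 to 0.39 without 1 pair), BMP7 (-0.46 to 0.11 without 1 pair) and SMAD5 (0.06 with filterByExpr, an alternative chosen after seeing the data, 0.15 without a filter and -0.21 to 0.22 without 1 pair), against -0.33, -0.19 and -0.02 in the fit of all pairs. The other 7 were ACVR1B (0.16, lowest -0.10), ACVR2B (-0.20, highest 0.16), SMAD1 (0.32, lowest -0.07), SMAD4 (0.16, lowest -0.05), SMAD6 (0.24, lowest -0.39), SMURF1 (0.20, lowest -0.04) and TGFBR3 (0.17, lowest -0.30), each with 1 pair left out. The cause of these turns was not tested. The values of TGFB1 rest on few counts, 4 to 16 per library, and the part of depth in this was not tested.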
